A study of Mus musculus with 12 samples.

Results

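Immediate early genes of the NR4A, AP-1 and EGR families were followed across 4 groups of 4T1-LUC mammary tumours. The 10 genes were taken by symbol from the 21899 genes of the deposited table: the nuclear receptors Nr4a1, Nr4a2 and Nr4a3, the FOS genes Fos, Fosb, Fosl1 and Fosl2, the JUN genes Jun and Junb, and the zinc finger gene Egr1. All 10 were found, each in a row of its own, and all 10 passed the filter on low counts that left 13638 genes to test. The choice of genes used no measured value, although earlier results of these data were known when it was made.

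Immediate early genes are transcribed within minutes of a signal such as a growth factor, stress, calcium or cyclic AMP, without the need for new protein. NR4A proteins are orphan nuclear receptors, FOS and JUN proteins pair to form the AP-1 transcription factor, and EGR1 binds GC-rich promoters. In tissue they are also known to respond to handling and to the time before freezing.

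The tumours came from 4T1-LUC cells, a luciferase-carrying line of the 4T1 mouse mammary carcinoma, placed under the skin of BALB/c mice that were 4 to 6 weeks old. Every mouse of the 4 groups carried such a tumour. The control group (Tnm in the labels) received 200 µL of vehicle by gavage each afternoon, labelled as corn oil. The curcumin group received curcumin at 100 mg/kg in the same volume of corn oil. The swimming group received the vehicle and swam for 30 min, starting 30 min after gavage, and the combination group received curcumin and swam. Each group had 3 libraries, named here by group and replicate number. The labels describe 30 mice in 5 groups of 5, including a saline group without tumour cells that was not analysed here, and do not say whether libraries came from separate animals or pooled tumours. The p-values therefore measure only the spread between these samples, which may be technical. The interval between the last swim and tumour collection is not given in the sources used here.

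Library totals ran from 15069348 to 17278826 counts. The summed level of 5 epithelial markers (Epcam, Krt8, Krt18, Cdh1 and Krt14) lay between 2203 and 2371 CPM in the curcumin libraries and between 2438 and 2788 CPM in the 9 others, where CPM is counts scaled by TMM to a common library total. Replicates of a group varied least in combination, with a biological coefficient of variation of 6.47%, and most in control (26.6%), with 12.4% in curcumin and 16.4% in swimming. Control 2 and swimming 2 stood apart from their groups for several of the genes described here. Because tumours were sequenced whole, fewer cells of a type and less RNA per cell cannot be told apart.

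Nr4a1 and Fosb rose in the combination tumours, and Egr1 followed the same order without passing the test. Nr4a1 was 1.98-fold and Fosb 3.60-fold above control when curcumin and swimming were combined, and 2.43% of all tested genes were called higher there. Fos, Fosl1, Fosl2, Nr4a2, Nr4a3, Jun and Junb did not pass the test in any of the 9 contrasts. Neither curcumin alone nor swimming alone gave a call against control for any of the 10 genes, where 0% and 0.308% of all tested genes were called.

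Upstream sequence was searched for 8 of the 10 genes (RefSeq, build GRCm38.p6, 250 bases before to 50 after the annotated start). Fosl1 had no sequence in the source used, and Egr1 was left out beforehand, so neither was searched. The 3 windows printed belong to the called genes Nr4a1 and Fosb and to Fos, the paralogue of Fosb that did not pass the test. Capitals mark TGACG, the core of a cyclic AMP response element, or its reverse complement CGTCA, and the TATA box TATAAA. The windows are chr15:101266596-101266895 on the plus strand for Nr4a1, chr7:19309996-19310295 on the minus strand for Fosb, and chr12:85473640-85473939 on the plus strand for Fos.
Nr4a1: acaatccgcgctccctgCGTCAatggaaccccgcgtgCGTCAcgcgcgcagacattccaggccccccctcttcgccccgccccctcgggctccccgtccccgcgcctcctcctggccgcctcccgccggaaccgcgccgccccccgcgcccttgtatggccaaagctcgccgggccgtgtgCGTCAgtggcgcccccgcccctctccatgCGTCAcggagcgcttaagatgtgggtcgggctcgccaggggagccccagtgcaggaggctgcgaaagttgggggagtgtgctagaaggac
Fosb: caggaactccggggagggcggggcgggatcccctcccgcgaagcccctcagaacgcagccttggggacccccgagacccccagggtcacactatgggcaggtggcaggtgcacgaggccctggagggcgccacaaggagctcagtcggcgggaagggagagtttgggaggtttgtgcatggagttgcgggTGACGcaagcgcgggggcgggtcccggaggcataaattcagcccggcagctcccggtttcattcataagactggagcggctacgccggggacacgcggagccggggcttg
Fos: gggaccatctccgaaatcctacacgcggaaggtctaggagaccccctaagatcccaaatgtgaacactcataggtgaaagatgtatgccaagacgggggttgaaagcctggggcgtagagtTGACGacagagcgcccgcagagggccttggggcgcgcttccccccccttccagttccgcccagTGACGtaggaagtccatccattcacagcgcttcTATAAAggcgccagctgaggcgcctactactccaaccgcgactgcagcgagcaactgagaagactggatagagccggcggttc

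The Nr4a1 window holds the TGACG core 4 times, starting at bases -233, -213, -69 and -40 from the annotated start. The Fosb window holds it at -60, and the Fos window at -129 and -66 with a TATA box at -33. The core was found on either strand in 6 of the 8 windows (Nr4a1, Nr4a2, Nr4a3, Fos, Fosb and Junb), against 20.81% of all 32851 RefSeq windows of that length. The EGR site GCGGGGGCG, not capitalised here, was found in Nr4a1, Fosb and Fosl2, against 2.91% of windows. The full element TGACGTCA, the AP-1 site TGACTCA, the NR4A site AAAGGTCA and the CArG box bound by SRF were in 0 of the 8 windows, against 1.79%, 5.2%, 1.51% and 1.63% of all windows. The letters TATAAA were found on either strand in 13.62% of windows, and in those of Nr4a2, Fos and Junb. They lay at -33 for Fos, at base 1 for Junb, and on the opposite strand at -164 for Nr4a2. These are exact letter matches in a short window and say nothing of binding in these tumours. Variants of these sites, sites outside the window, and any sites of Fosl1 and Egr1 were not counted.

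Per unit of transcript length, the 10 genes spanned a wide range of FPKM, the deposited value that divides counts by gene length and library total. Averaged over the 12 libraries, Junb was highest at 286 FPKM, followed by Jun at 66.2, Egr1 at 24.0 and Fos at 22.7. Fosl2 stood at 15.4 FPKM, Nr4a1 at 10.2, Fosl1 at 8.45, Fosb at 5.36 and Nr4a2 at 3.15. Nr4a3 was lowest at 0.79 FPKM, with as few as 21 counts in swimming 2. The order of abundance was not the order of variability. The highest library exceeded the lowest 6.62-fold for Nr4a3, 5.99-fold for Fos, 4.78-fold for Fosb, 3.54-fold for Egr1 and 2.90-fold for Nr4a1, but 1.63-fold for Jun and 1.67-fold for Junb.

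**Figure D1:**
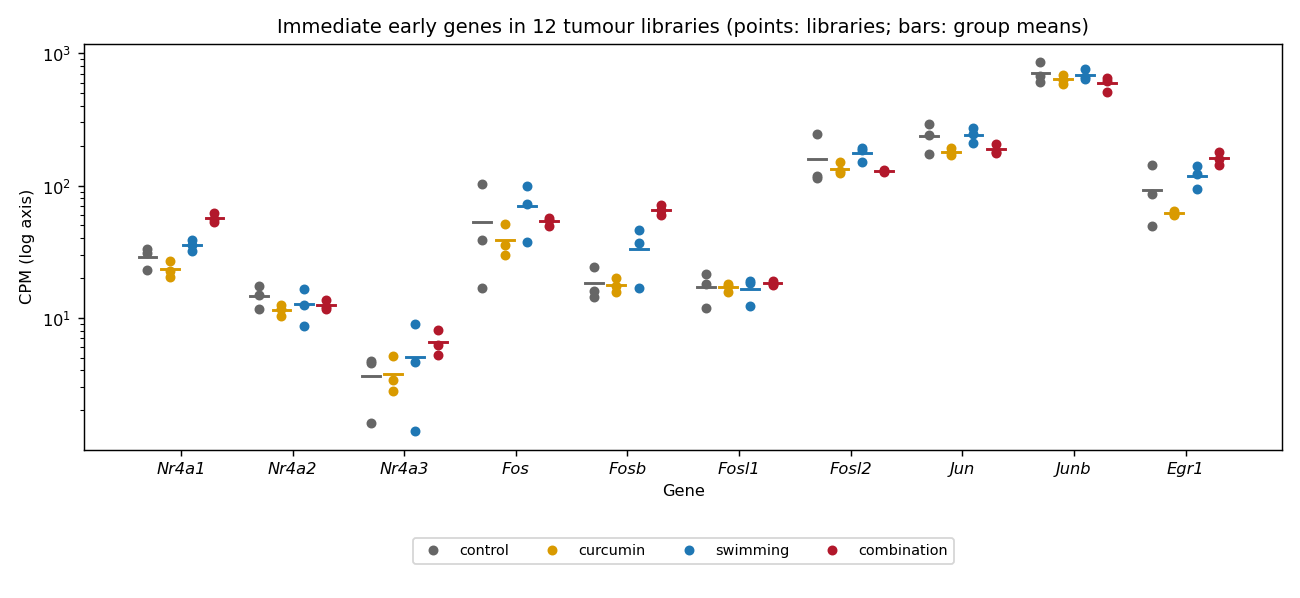
CPM on a log axis (vertical) of each of the 10 genes (horizontal) in 12 tumour libraries, with points for libraries, short bars for group means and colours for groups. The combination libraries lie above all others for Nr4a1 (53.0 to 62.4 CPM) and Fosb (59.8 to 70.7 CPM), while Fos spreads from 16.7 to 103 CPM within control.

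Among the nuclear receptors, Nr4a1 (ENSMUSG00000023034, chromosome 15, 101152150 to 101172676 as the table holds it), also known as Nur77, separated the groups. Its level was 22.8, 32.8 and 30.6 CPM in controls 1 to 3 and 20.4, 26.8 and 22.5 CPM in the curcumin libraries. The swimming libraries gave 38.6, 31.8 and 35.4 CPM, and the combination libraries 55.4, 62.4 and 53.0 CPM. Every combination library was above every other library, and every swimming library was above every curcumin library, whereas control overlapped both single treatments. Group means were 28.8 ± 5.29, 23.2 ± 3.24, 35.3 ± 3.42 and 56.9 ± 4.86 CPM across control, curcumin, swimming and combination (SD, n = 3 each). Nr4a1 differed between the 4 groups (edgeR quasi-likelihood F-test, Benjamini-Hochberg adjusted p = 0.00432).

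The rise of Nr4a1 in combination was measured against each of the other groups. Against control the log2 fold change was 0.99 ± 0.15 (SE) with an edgeR adjusted p of 0.00945. Against curcumin it was 1.29 ± 0.15 (edgeR adjusted p = 0.00391), the 3rd smallest p among 13638 genes. Against swimming it was 0.69 ± 0.14 (edgeR adjusted p = 0.0206). Averaged over curcumin, swimming raised Nr4a1 by 0.79 ± 0.10 (edgeR adjusted p = 0.00854), the 6th smallest p of all genes. Single treatments gave smaller differences that did not pass: 0.29 ± 0.15 for swimming (edgeR adjusted p = 0.428) and -0.31 ± 0.15 for curcumin (edgeR adjusted p = 0.474), both against control. The interaction, which asks whether the combined change exceeds the sum of the single ones, was 1.00 ± 0.21 and missed the threshold (edgeR adjusted p = 0.0803, unadjusted p = 0.00033).

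The calls on Nr4a1 differed in how often they were kept when 1 library was left out. The call against curcumin and the averaged swimming call were kept in all 12 fits that left out 1 library. Against control the adjusted p rose to 0.0770 without combination 2 and to 0.05005 without combination 3 (edgeR), where calls over all genes fell from 663 to 10 and 4. Against swimming the call was kept in 7 of 12 such fits and lost without swimming 1, swimming 3 or any of the 3 combination libraries (edgeR adjusted p from 0.0571 to 0.0947). Calls over all genes also fell there, from 908 to 109 and 161 without swimming 1 and 3. They fell to between 31 and 89 without a combination library. The interaction passed without control 1 (1.14, edgeR adjusted p = 0.0297) and without control 2 (0.89, 0.0285), where 31 and 455 genes were called in place of 34. The sign was the same in every one of these fits.

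The other nuclear receptors did not follow. Nr4a2 (ENSMUSG00000026826, chromosome 2, 56996842 to 57014015), known as Nurr1, measured 14.7 ± 2.84, 11.5 ± 1.07, 12.6 ± 3.94 and 12.4 ± 0.96 CPM across control, curcumin, swimming and combination (n = 3 each), and its groups overlapped throughout. Nr4a3 (ENSMUSG00000028341, chromosome 4, 48045153 to 48086447), known as NOR1, gave 4.54, 1.598 and 4.73 CPM in control, 2.77, 5.16 and 3.41 with curcumin, 4.62, 1.39 and 9.03 with swimming and 5.27, 6.18 and 8.09 with both. The combination libraries of Nr4a3 lay above all control and curcumin libraries, but swimming 3 was the highest of the 12. Its log2 fold change between combination and control was 0.84 ± 0.56 (edgeR adjusted p = 0.349), with a 95% interval from -0.37 to 2.06. Control 2 and swimming 2 held the lowest Nr4a3 levels of all libraries.

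In the FOS family, Fosb (ENSMUSG00000003545, chromosome 7, 19036621 to 19043976) was the gene that rose. FosB forms AP-1 with a JUN protein, and its truncated form ΔFosB is long-lived. Gene counts do not separate these forms. Fosb measured 14.4, 16.0 and 24.2 CPM in control, 15.6, 20.0 and 17.5 with curcumin, 37.0, 16.8 and 46.3 with swimming and 65.7, 70.7 and 59.8 with both. Combination libraries exceeded all 9 others, and the swimming group was split, with swimming 2 at the level of control and curcumin. The means were 18.2 ± 5.25, 17.7 ± 2.23, 33.3 ± 15.1 and 65.4 ± 5.45 CPM across control, curcumin, swimming and combination (SD, n = 3 each).

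Fosb had the largest fold changes of the 10 genes in the combination contrasts with control and with curcumin. It rose by 1.85 ± 0.31 (log2, SE) against control, a 3.60-fold change (edgeR adjusted p = 0.0186), and by 1.89 ± 0.31 against curcumin (edgeR adjusted p = 0.0267). Against swimming the difference was 0.97 ± 0.30 and did not pass (edgeR adjusted p = 0.0742). It passed with DESeq2 (0.97, adjusted p = 0.0126) and with limma voom (1.09, 0.00661). Those tools called 1886 and 2797 of all genes in that contrast, against 908 with edgeR. Averaged over curcumin, swimming raised Fosb by 1.38 ± 0.22 (edgeR adjusted p = 0.0216), and the 4 groups differed (edgeR adjusted p = 0.0178). Swimming alone against control gave 0.88 ± 0.31 (edgeR adjusted p = 0.275). Without swimming 2, that difference was 1.20 and passed (edgeR adjusted p = 0.0455). The interaction of 1.01 ± 0.44 did not pass (edgeR adjusted p = 0.434).

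In the contrasts where both genes were called, Fosb kept its call in fewer fits than Nr4a1. The call against control was kept in 8 of 12 fits that left out 1 library and was lost without control 2 (edgeR adjusted p = 0.0504) or without any of the combination libraries (0.0655 to 0.0938). The call against curcumin was kept in 6 of 12 and lost without any curcumin or combination library (edgeR adjusted p from 0.0698 to 0.142). The averaged swimming call was kept in 7 of 12 and lost without curcumin 3, swimming 1 or any combination library (edgeR adjusted p from 0.0596 to 0.0667). The Fosb call over the 4 groups was lost without any combination library (edgeR adjusted p from 0.0679 to 0.0828). Calls over all genes fell in the same fits. Against control they fell from 663 to 316 without control 2 and to between 4 and 20 without a combination library. Against curcumin they fell from 116 to 81 without curcumin 1 and to between 3 and 8 without the other libraries named. In averaged swimming they fell from 277 to between 6 and 30, and over the 4 groups from 769 to between 28 and 38. Over the 12 fits that left out 1 library, the log2 change of Fosb against control stayed between 1.704 and 2.11.

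Fos itself (ENSMUSG00000021250, chromosome 12, 85520664 to 85524047), the founding member of the family, did not separate the groups. Its level was 16.7, 103 and 39.04 CPM in control, 29.7, 50.9 and 35.4 with curcumin, 72.1, 37.3 and 99.05 with swimming and 54.7, 49.7 and 56.3 with both. The lowest and the highest of the 12 libraries were both controls, and the combination libraries lay inside the range of the controls. Combination against control gave 0.02 ± 0.55 (edgeR adjusted p = 0.985), with a 95% interval from -1.20 to 1.24 on the log2 scale, which is wide. The averaged swimming difference was 0.43 ± 0.39 (edgeR adjusted p = 0.584).

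The control with the highest Fos level, control 2, also had the highest summed neutrophil markers, 232 CPM against 32.8 to 142 in the 11 other libraries, and the highest summed heat shock and handling genes, 4644 CPM against 2995 to 3781. The part of these markers in the Fos level was not tested. Fosl2 (Fra-2; ENSMUSG00000029135, chromosome 5, 32293145 to 32315186) was likewise highest in control 2, at 244 CPM against 119 and 114 CPM in controls 1 and 3. Group means of Fosl2 were 159 ± 73.7, 134 ± 13.8, 176 ± 22.8 and 130 ± 2.04 CPM across control, curcumin, swimming and combination (n = 3 each). All swimming libraries of Fosl2 were above all combination libraries, a log2 difference of -0.44 ± 0.24 for combination against swimming (edgeR adjusted p = 0.263). Fosl2 was called in some contrasts without control 2, in a fit where more genes passed in all of these contrasts. For swimming against control the Fosl2 difference was then 0.60 (edgeR adjusted p = 0.00944) in place of 0.15 (0.861), while calls over all genes rose from 42 to 603. For combination against swimming and swimming against curcumin, Fosl2 stayed at -0.44 and 0.39 (edgeR adjusted p = 0.00717 and 0.0213), while calls over all genes rose from 908 to 2697 and from 243 to 1537. The interaction (-0.65, edgeR adjusted p = 0.0293) and averaged swimming (0.27, 0.0374) also passed for Fosl2 in that fit, with 455 and 976 genes called in place of 34 and 277.

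Fosl1 (Fra-1; ENSMUSG00000024912, chromosome 19, 5497575 to 5505974), a FOS protein often raised in invasive carcinoma, had similar means in all groups. It measured 17.04 ± 4.77, 16.998 ± 1.17, 16.5 ± 3.64 and 18.2 ± 0.74 CPM across control, curcumin, swimming and combination (n = 3 each). Its log2 change in combination against control was 0.09 ± 0.20, with a 95% interval from -0.34 to 0.53 (edgeR adjusted p = 0.796). Its lowest libraries were control 2 (11.9 CPM) and swimming 3 (12.3 CPM), the same pair in which Fos was highest.

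The JUN genes were the most abundant and the least variable of the set. Jun (ENSMUSG00000052684, chromosome 4, 94937271 to 94940459), the main AP-1 partner of FOS proteins, measured 241, 295 and 175 CPM in control, 171, 191 and 181 with curcumin, 270.5, 209 and 247 with swimming and 179, 207 and 177 with both. The groups given curcumin, with or without swimming, were the lower ones, although control 3 lay among them. The summed epithelial markers were also lower in all 3 curcumin libraries than in every other library, though not in combination, and their part in the Jun level was not tested. Averaged over swimming, curcumin went with a log2 difference of -0.38 ± 0.11 for Jun, which missed the threshold (edgeR adjusted p = 0.0614, unadjusted p = 0.00533). It passed without control 3 or swimming 2 (edgeR adjusted p = 0.0170 and 0.0449), with DESeq2 (0.0189) and with limma voom (0.0360). These 4 settings called 993, 1159, 1989 and 1466 of all genes, against 885 in the main fit. Every swimming library was above every curcumin and every combination library, with 0.42 ± 0.16 for swimming against curcumin (edgeR adjusted p = 0.157) and -0.37 ± 0.16 for combination against swimming (0.158).

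Junb (ENSMUSG00000052837, chromosome 8, 85701113 to 85705347), which can oppose Jun in AP-1, was at 713 ± 126, 635 ± 51.1, 687 ± 61.5 and 595 ± 75.4 CPM across control, curcumin, swimming and combination (n = 3 each). Its groups overlapped in every pairwise comparison, and combination against control gave -0.26 ± 0.13 (edgeR adjusted p = 0.225). Control 2 was again the highest library, at 854 CPM, and combination 2 the lowest, at 509.7 CPM.

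Egr1 (ENSMUSG00000038418, chromosome 18, 34992876 to 34998037), a zinc finger factor downstream of growth factor and MAP kinase signals, resembled Nr4a1. It measured 49.4, 142 and 86.6 CPM in control, 60.2, 64.0 and 60.4 with curcumin, 122, 94.1 and 140.4 with swimming and 158, 180.0 and 144 with both. All combination libraries were above all others, though control 2 came within a few CPM of combination 3, and all swimming libraries were above all curcumin libraries. Group means were 92.8 ± 46.8, 61.6 ± 2.16, 119 ± 23.3 and 161 ± 18.0 CPM in control, curcumin, swimming and combination (SD, n = 3 each).

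Egr1 missed the threshold in all 9 edgeR contrasts, and whether it passed varied with the setting. Combination exceeded curcumin by 1.39 ± 0.30 (edgeR adjusted p = 0.0593), and swimming averaged over curcumin gave 0.87 ± 0.21 (0.0580). Against control, combination gave 0.79 ± 0.29 (edgeR adjusted p = 0.121). With genes kept at a mean count of at least 50, combination against curcumin passed (1.38, edgeR adjusted p = 0.0494), as did averaged swimming (0.87, 0.0490). With DESeq2, Egr1 was called in both (adjusted p = 9.73e-05 and 0.000565) and in combination against control (0.0329), and with limma voom in the first 2 (0.000705 and 0.0198). Of all genes, DESeq2 called 700, 952 and 1656 in these contrasts, against 116, 277 and 663 with edgeR. Limma voom called 1933 and 254 of all genes in the first 2. Without control 2, Egr1 stayed at 1.39 against curcumin and passed (edgeR adjusted p = 0.00863), in a fit where calls over all genes rose from 116 to 715. In the same fit, averaged swimming was 1.10 (edgeR adjusted p = 0.00585), with calls over all genes rising from 277 to 976, and combination against control was 1.25 (0.0251), with calls falling from 663 to 316. Without control 1, Egr1 passed against curcumin at 1.39 and in averaged swimming at 0.72 (edgeR adjusted p = 0.0119 and 0.0243), with 225 and 571 genes called in all.

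**Figure D2:**
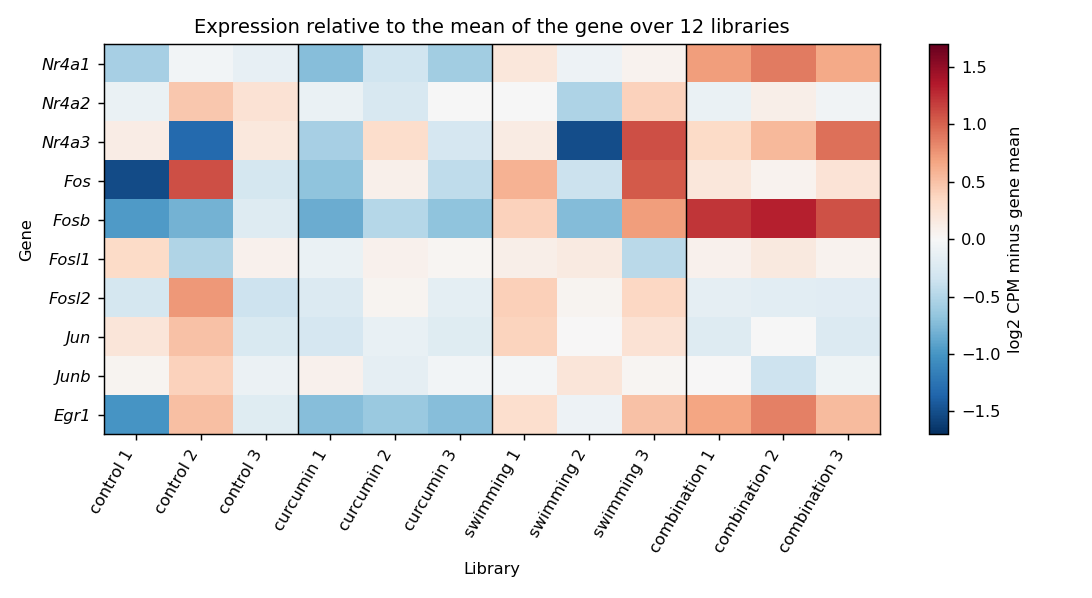
Log2 CPM of the 10 genes (rows) in the 12 libraries (columns, grouped by treatment with vertical lines between groups), shown as the difference from the mean of each gene, red for higher and blue for lower. Nr4a1, Fosb and Egr1 are red in the 3 combination libraries, and Fos is highest in control 2 (103 CPM) and swimming 3 (99.05 CPM).

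Counted over the set, the calls were few and lay in the contrasts that involve the combination. Against control, 2 of 10 genes were called in combination, both higher, where 2.43% of all 13638 genes were called higher. Libraries did not overlap for 4 of 10 (Nr4a1, Nr4a3, Fosb and Egr1, all higher), against 16.3% of all genes. Against curcumin, again 2 were called higher in combination (0.359% of all genes) and 4 did not overlap, all higher (18.6%). Against swimming, 1 was called higher with edgeR (3.5% of all genes). DESeq2 and limma voom also called Fosb higher, with 1886 and 2797 of all genes called in either direction. There 3 did not overlap on the higher side (Nr4a1, Fosb and Egr1), against 20.4%, and 2 on the lower side (Fosl2 and Jun), against 20.2%. Both counts on this reference are close to what the background gives for 10 genes.

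Swimming averaged over curcumin called 2 genes higher (0.946% of all genes), and the test of any difference between the 4 groups called 2 (5.64%), in each case Nr4a1 and Fosb. With DESeq2 and with limma voom, Egr1 was added to both. Of all 13638 genes, DESeq2 called 952 and 2666 in these tests and limma voom 254 and 256, against 277 and 769 with edgeR. Curcumin against control called 0 genes with edgeR, DESeq2 and limma voom (0% of all genes with edgeR), with 1 at an unadjusted p under 0.05 (Jun, against 10.9% of all genes). Swimming against control called 0 with the same tools (0.308% of all genes with edgeR), with 1 unadjusted (Fosb, against 13% of all genes). Of all genes, DESeq2 called 87 and 318 in these 2 contrasts, and limma voom called 0 in each. All 10 genes overlapped between the groups in both comparisons, where 7.41% of all genes were higher and 7.22% lower without overlap under curcumin, and 5.83% and 7.24% under swimming. Swimming against curcumin called 0 with edgeR (1.78% of all genes), with 4 unadjusted (Nr4a1, Fosb, Jun and Egr1, against 21.8%), 3 with DESeq2 and 2 with limma voom. The last 2 tools called 1032 and 907 of all genes in that contrast, against 243 with edgeR. There 4 genes did not overlap, all higher in swimming (Nr4a1, Fosl2, Jun and Egr1, against 15.5% of all genes). The interaction called 0 with edgeR (0.249% of all genes), with 3 unadjusted (Nr4a1, Fosb and Egr1, against 11%), 1 with DESeq2 (Nr4a1) and 0 with limma voom. DESeq2 called 217 interactions and limma voom 36 among all genes, against 34 with edgeR. Curcumin averaged over swimming called 0 with edgeR (6.49% of all genes), with 1 unadjusted (Jun, against 28.7%), which DESeq2 and limma voom called. Those tools called 1989 and 1466 of all genes there, against 885 with edgeR.

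Changes over the whole set were small beside those of Nr4a1 and Fosb. Curcumin alone had a positive log2 change for 1 of 10 genes (median -0.28, against 0.00 over all genes tested), and swimming against curcumin for 9 of 10 (median 0.42, against -0.02). Combination against control had 6 of 10 positive with a median of 0.06, against -0.02 over all genes.

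**Figure D3:**
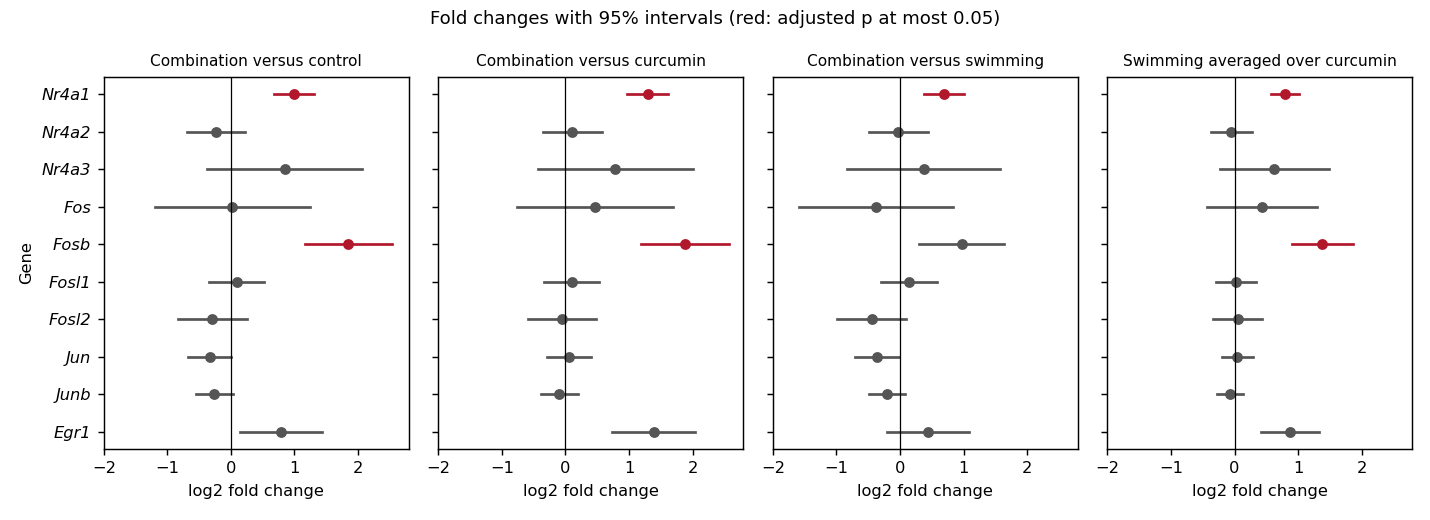
Log2 fold changes (horizontal axis, points) with 95% intervals (lines) for the 10 genes (vertical axis) in 4 contrasts, red where the edgeR adjusted p was at most 0.05. Nr4a1 is red in all 4 panels, from 0.69 to 1.29, and Fosb in every panel but combination versus swimming, where it was 0.97.

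The make-up of the FOS family shifted with Fosb. As a share of summed FOS FPKM, which corrects for gene length, Fosb made up 6.63 ± 3.09%, 6.85 ± 0.29%, 8.38 ± 1.94% and 18.8 ± 1.62% across control, curcumin, swimming and combination (SD, n = 3 each). The combination libraries ran from 17.3% to 20.5%, and the highest of the other libraries was swimming 3 at 9.91%. The share of Fosl2 was lowest in combination, 24.1 ± 0.24%, against 33.2 ± 4.73% in control. The share of Fos ranged from 22.1% to 56.5% over the controls alone and was 41.0 ± 2.49% in combination. Per unit length, Fosb stood at 0.452, 0.536 and 0.400 of Fos in the combination libraries and between 0.059 (control 2) and 0.325 (control 1) in the others.

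Within the NR4A family, Nr4a1 made up 65.9 ± 1.65% of summed FPKM in control, 65.5 ± 3.12% with curcumin, 72.5 ± 7.57% with swimming and 79.6 ± 1.63% with both. The combination libraries (77.7% to 80.8%) overlapped swimming, because swimming 2 reached 79.2%. Nr4a2 and Nr4a3 were both at their lowest of the 12 libraries in swimming 2 (2.09 and 0.226 FPKM). Among Jun, Junb and Jund, the share of Junb was 78.5 ± 1.99% in control and 78.1 ± 3.23% in combination, a difference smaller than the spread between replicates. No test was run on these shares.

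**Figure D4:**
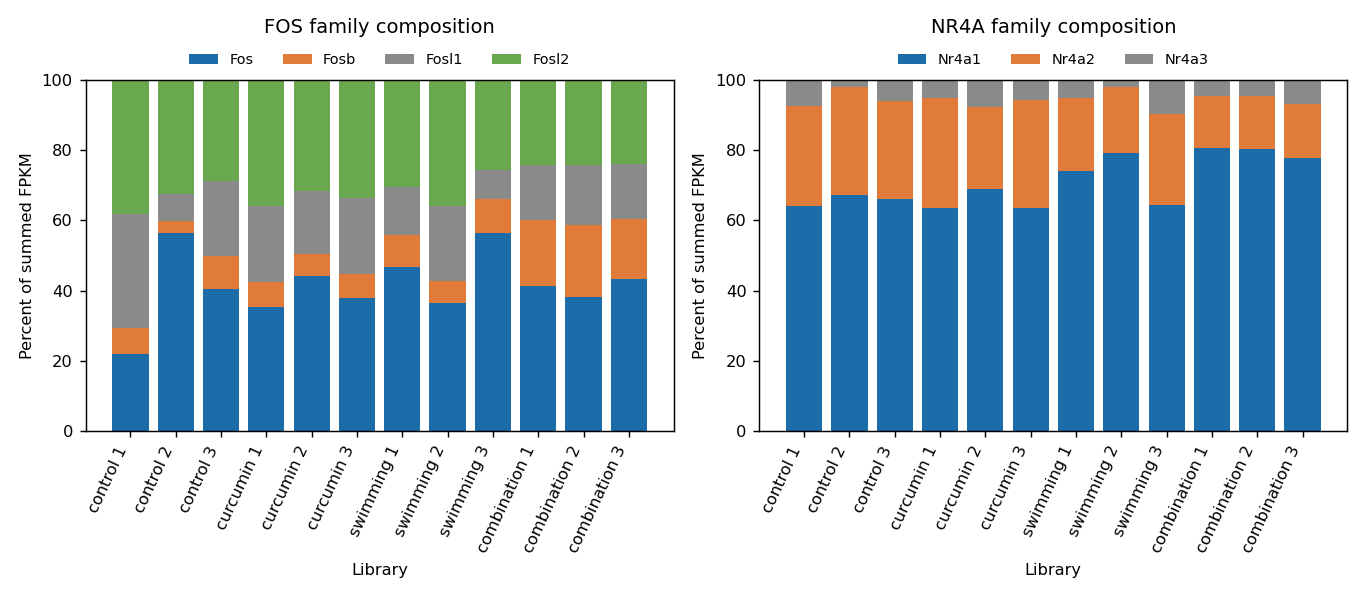
Stacked bars of the percent of summed FPKM (vertical axis, 0 to 100) held by each FOS gene (left) and each NR4A gene (right) in each of the 12 libraries (horizontal axis). Fosb takes 17.3% to 20.5% of the FOS sum in the combination libraries and at most 9.91% elsewhere.

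Across the 12 libraries the genes differed in which others they varied with. These correlations of log2 CPM are descriptions over libraries that share their 4 groups and their scaling. Nr4a1 went with Fosb (Pearson r = 0.912) and with Egr1 (0.909). Over the 9 libraries outside combination, these were 0.709 and 0.899, and without control 2 they were 0.945 and 0.946. Fos went with Fosl2 (0.786) and Egr1 (0.755), and Fosl2 with Jun (0.816). Over the 9 libraries outside combination, these were 0.879, 0.901 and 0.814. There Nr4a1 also rose from 0.498 to 0.768 with Fos and from 0.084 to 0.704 with Fosl2, near its 0.709 with Fosb. Fosl2 with Egr1 rose from 0.407 to 0.837. These genes were thus less clearly split outside combination. Fosb and Fos, stood at 0.456, rising to 0.700 without control 2. Fosl1 ran opposite to Fos (-0.726) and to Fosl2 (-0.706). Nr4a1 stood at 0.144 with Nr4a2 and at 0.023 with Jun, and these rose to 0.339 and 0.624 over the 9 libraries outside combination.

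Outside the set, the tested genes most like Nr4a1 over the 12 libraries were Mapk6 (r = 0.917), an atypical MAP kinase, the sphingosine 1-phosphate exporter Spns2 (0.915), the RNA decay factor Patl1 (0.909), Fam207a (0.900) and the small GTPase Rab2a (0.898). Mapk6 averaged 218, 219.8, 269 and 341 CPM across control, curcumin, swimming and combination, the same order as Nr4a1 except that control and curcumin were level. Those most like Fos were the lipopolysaccharide co-receptor Cd14 (r = 0.953), D5Ertd579e (0.907), Acsf2 (0.893), the amino acid transporter Slc7a5 (0.893) and Tmem140 (0.886). Cd14 was at 133 CPM in control 2 and 123 CPM in swimming 3, the libraries where Fos was highest, and at 39.01 CPM in control 1, where Fos was lowest. These are the 5 highest of all tested genes at a mean of at least 1 CPM, chosen for their likeness, and are given as descriptions.

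Genes that work with these families were read in 9 lists, by the edgeR test of any difference between the 4 groups, which called 5.64% of all genes. Each of these calls was lost without at least 2 single libraries, and none but that of Per1 was kept in more than 9 of the 12 fits that left out 1 library. Calls over all genes fell as well, from 769 to 143 without curcumin 3 and 118 without swimming 1. Without a combination library they fell to between 28 and 38. Of 16 other early response genes tested, 3 were called. Ier5l was lowest in swimming (21.6 ± 1.19 CPM, against 33.8 ± 1.35 in control). Ier3, a survival and stress gene, was at 142 ± 8.90 CPM in swimming and 58.8 ± 2.29 in combination (log2 -1.27 ± 0.21, edgeR adjusted p = 0.0118). The zinc finger gene Klf6 rose under swimming averaged over curcumin by 0.41 ± 0.07 (edgeR adjusted p = 0.0216). The 4-group calls of Ier5l and Ier3 were lost without curcumin 3, swimming 1, swimming 3 or any combination library, and that of Klf6 also without curcumin 1 or 2 (edgeR adjusted p from 0.0557 to 0.0902). The Ier3 contrast was lost without any combination library (edgeR adjusted p from 0.0525 to 0.0589), and the Klf6 contrast without curcumin 2, curcumin 3, swimming 1 or any combination library (0.0527 to 0.0753). Maff (64.5, 45.5, 70.7 and 44.8 CPM in control, curcumin, swimming and combination) and Ier5 (62.3, 47.6, 62.0 and 36.6 CPM) had the smallest p of those not called over the 4 groups. Both were called lower for curcumin averaged over swimming (-0.58 and -0.57, edgeR adjusted p = 0.0334 and 0.0408). Ier5 was also lower in combination than in swimming (-0.76, edgeR adjusted p = 0.0486). These calls were kept in 4, 4 and 3 of the 12 fits that left out 1 library. The EGR relatives were not called over the 4 groups, with Egr2 at 41.7, 35.0, 43.7 and 50.5 CPM and Egr3 at 19.0, 17.6, 15.1 and 19.5 CPM.

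Of 17 feedback phosphatases, kinases and RNA decay factors, which are themselves induced early and dampen the same signals, 4 were called. Dusp5, a phosphatase of nuclear ERK, was at 34.2 ± 4.17 CPM in control, 58.7 ± 6.24 in swimming and 53.0 ± 1.14 in combination, and rose under swimming averaged over curcumin by 0.60 ± 0.08 (log2, edgeR adjusted p = 0.0110). Dusp4 was at 124 ± 1.49 CPM in swimming and 66.6 ± 6.34 in curcumin (0.90 ± 0.13, edgeR adjusted p = 0.0115), and Sik1 at 111 ± 11.2 and 58.5 ± 2.19 CPM (0.93 ± 0.16, 0.0227). Spry2, an inhibitor of receptor kinase signals, fell by 0.57 in combination against control (edgeR adjusted p = 0.0186). Dusp10 (30.2, 23.1, 34.5 and 24.0 CPM across control, curcumin, swimming and combination) and Dusp1 were not called, and Dusp1 ran from 19.0 to 90.2 CPM within control. All 4 of the 4-group calls were lost without any combination library, those of Dusp4, Spry2 and Sik1 also without curcumin 3 or swimming 1, and that of Sik1 also without curcumin 2 or swimming 3 (edgeR adjusted p from 0.0539 to 0.0966). Of the contrasts, Dusp5 was lost without swimming 1 or combination 2 (edgeR adjusted p = 0.0522 and 0.0583), Spry2 without any combination library (0.0665 to 0.0970), Dusp4 without curcumin 3 or swimming 1 (0.0778 and 0.0775) and Sik1 without curcumin 2, curcumin 3 or swimming 1 (0.0885 to 0.117).

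Of 7 cyclic AMP and CREB responsive genes tested, 3 were called: Per1, Sik1 and Pck1. Per1, a repressor of the circadian clock, measured 237, 152 and 248 CPM in swimming but 80.4, 86.2 and 70.4 in combination, against 31.7, 85.9 and 71.2 in control and 49.4, 47.1 and 44.5 in curcumin. Swimming stood clear of every other library, and combination fell below swimming by 1.43 ± 0.30 on the log2 scale (edgeR adjusted p = 0.0235). The 4-group call of Per1 was lost without combination 2 or 3 (edgeR adjusted p = 0.0531 and 0.0505), and that of Pck1 without curcumin 3, swimming 1 or any combination library (0.0659 to 0.106). The contrast of Per1 was kept in 7 of 12 fits that left out 1 library and was lost without swimming 1, swimming 3 or any combination library (edgeR adjusted p from 0.0767 to 0.0956). Sik1 was likewise lower in combination than in swimming (-0.66 ± 0.16, edgeR adjusted p = 0.0350), a call lost without curcumin 3 and without the same 5 libraries (0.0585 to 0.130). Pck1, an enzyme of gluconeogenesis, was at 0 CPM in all controls and between 1.03 and 1.77 CPM in combination, too low for a fold. It reached at most 0.0643 CPM in curcumin and 0.627 CPM in swimming. The summed adipocyte markers were also highest in combination (5.09 to 7.09 CPM), and their part in the Pck1 level was not tested. Pde4d and Pde4b had the smallest p of those not called, at 24.5, 20.3, 23.6 and 17.7 CPM and at 41.5, 39.4, 58.6 and 50.01 CPM in control, curcumin, swimming and combination. Nr4a1, Fosb and, at its low level, Pck1 were thus highest in the combination libraries. Per1 and Sik1 were highest in the swimming libraries.

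**Figure D5:**
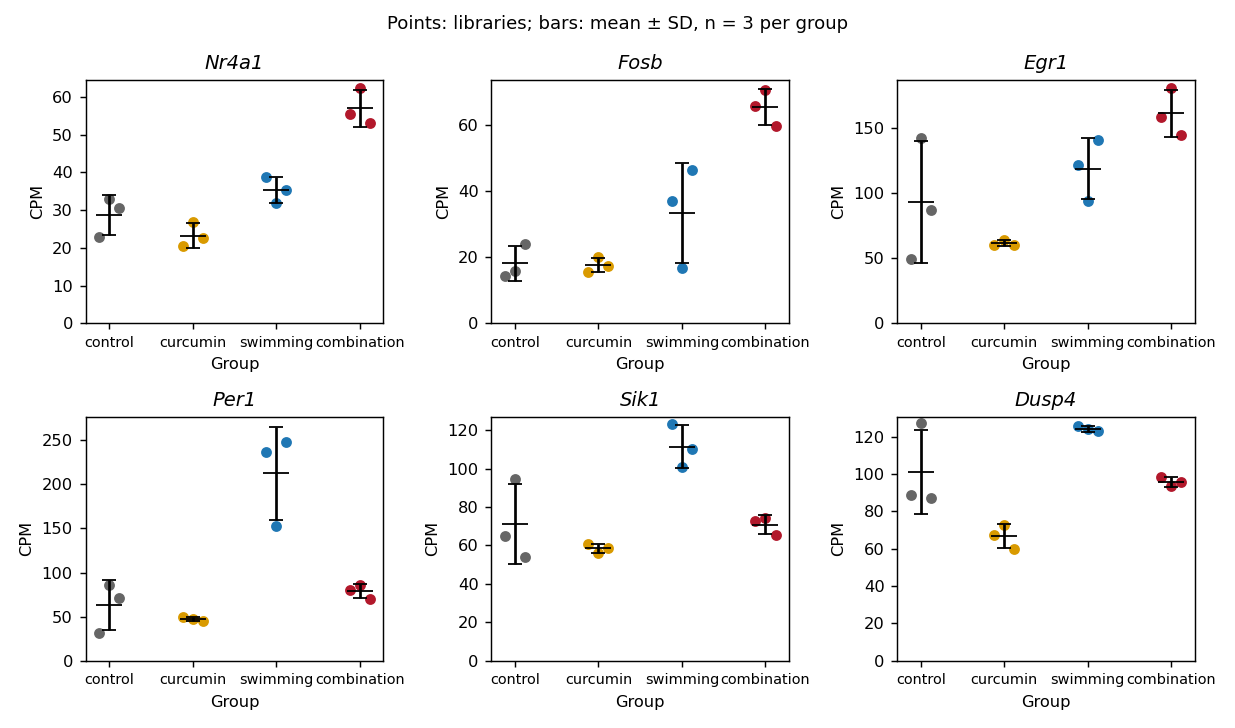
CPM (vertical axes, from 0) of Nr4a1, Fosb and Egr1 (top) and of Per1, Sik1 and Dusp4 (bottom) in the 4 groups (horizontal axes), with points for libraries and bars for mean ± SD, n = 3 per group. The top genes are highest in combination (Nr4a1 56.9 CPM) and the bottom genes, chosen after their values were seen, have their highest group mean in swimming (Per1 212 CPM).

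Among 12 AP-1 dimer partners outside the set, 1 was called: Jdp2, a partner of JUN that represses AP-1 targets, at 19.1 ± 1.74 CPM in control and 28.4 ± 2.90 in combination (log2 0.57 ± 0.14, edgeR adjusted p = 0.0386). Atf4 (117, 109, 146 and 90.2 CPM) and Batf2 (28.9, 42.9, 22.2 and 35.4 CPM across control, curcumin, swimming and combination) were next in p and were not called over the 4 groups. Atf4 was called lower in combination than in swimming (-0.69, edgeR adjusted p = 0.0395), a call kept in 4 of 12 fits that left out 1 library. Of 21 upstream regulators (SRF, its cofactors, CREB and the MAP kinases), 1 was called, the ETS factor Elk3, which rose by 0.45 ± 0.09 in combination against control (edgeR adjusted p = 0.0274). Mrtfa was at 61.3, 64.8, 78.6 and 70.6 CPM and Mapk14 at 81.1, 82.9, 68.5 and 81.2 CPM in control, curcumin, swimming and combination, and neither was called. Mapk3 was called lower for curcumin averaged over swimming (-0.36, edgeR adjusted p = 0.0406), a call kept in 4 of 12 such fits. The 4-group call of Jdp2 was kept without control 1, control 2 or curcumin 2 alone, and that of Elk3 without control 1 or control 2 alone; each was lost without any other library (edgeR adjusted p from 0.0513 to 0.174). Against control, both contrasts were lost without control 3, curcumin 3 or any combination library, and that of Jdp2 also without control 2 or swimming 1 (edgeR adjusted p from 0.0520 to 0.167). Of 10 EGF receptor ligands and receptors tested, 1 was called, the receptor Erbb3, at 33.2, 23.3, 20.2 and 36.9 CPM in the same order, and its 4-group call was lost without any combination library (edgeR adjusted p from 0.0566 to 0.0616). Hbegf (154, 138, 172 and 196 CPM) and Erbb2 (100.5, 82.7, 80.5 and 97.8 CPM) were not called.

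Of 4 EGR corepressors and NR4A dimer partners tested, 2 were called. Nab1, which represses EGR proteins, rose by 0.37 ± 0.08 in combination against control (edgeR adjusted p = 0.0325). Rxra, a retinoid receptor that pairs with NR4A1 and NR4A2, fell by 0.48 (edgeR adjusted p = 0.0274), from 96.7 ± 15.5 to 69.3 ± 1.14 CPM. The 4-group call of Nab1 was kept without control 1, control 2 or curcumin 2, and that of Rxra without control 1 or control 2; each was lost without any other library (edgeR adjusted p from 0.0506 to 0.156). Against control, both were lost without curcumin 3 or any combination library, and Nab1 also without control 3 (edgeR adjusted p from 0.0535 to 0.139). Nab2 (26.4, 25.3, 21.4 and 20.1 CPM) and Rxrb (58.1, 50.4, 48.0 and 43.3 CPM) were not called. Of 16 AP-1 target genes, 5 were called: Mmp3, Plaur, Mmp13, Spp1 and Mmp10. Mmp3, a stromal protease, was at 201 ± 19.1 CPM in swimming and 66.5 ± 7.10 in combination (log2 -1.60 ± 0.24, edgeR adjusted p = 0.0100), a contrast lost without combination 2 (0.0586). Plaur, the urokinase receptor, was at 127 ± 6.04 CPM in control and 171 ± 10.2 in swimming. Spp1 averaged 1705, 1194, 1941 and 1551 CPM, and Mmp13 143, 170.0, 281 and 183 CPM, in control, curcumin, swimming and combination. Mmp10 averaged 25.8, 49.7, 45.8 and 44.7 CPM in the same order. All 5 of the 4-group calls were lost without curcumin 3, swimming 1 or any combination library. That of Mmp13 was also lost without swimming 2 or 3, that of Spp1 without curcumin 1, curcumin 2 or swimming 2, and that of Mmp10 without curcumin 1, curcumin 2 or any control (edgeR adjusted p over the 5 genes from 0.0542 to 0.132). Those of Mmp3 and Plaur were kept in 7 of 12 fits, Mmp13 in 5, Spp1 in 4 and Mmp10 in 2. Lif (66.4, 89.2, 84.7 and 80.0 CPM) and Itga5 (127, 167, 199 and 213 CPM) were next in p and not called over the 4 groups. Itga5 was called higher in combination than in control (0.75, edgeR adjusted p = 0.0470), a call kept in 3 of 12 fits that left out 1 library.

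Of 10 SRF targets of the MRTF arm tested, edgeR called 0 over the 4 groups, with 2 at an unadjusted p under 0.05 (Myl9 and Ccn2), 1 with DESeq2 and 0 with limma voom. All 10 had a positive log2 difference for swimming averaged over curcumin, with a median of 0.44 against -0.01 over all genes, and 0 were called in that contrast (4 unadjusted, 0 with DESeq2, 1 with limma voom). Of all 13638 genes, DESeq2 called 2666 over the 4 groups and 952 in averaged swimming, and limma voom 256 and 254. The share of all genes at an unadjusted p under 0.05 is not given for these tests. Myl9 averaged 11.9, 16.2, 15.8 and 23.6 CPM and Ccn2 182, 159, 331 and 226 CPM in control, curcumin, swimming and combination. For combination against control, the list medians were -0.09 for the other early response genes, -0.11 for the feedback genes, 0.22 for the CREB genes and 0.26 for the AP-1 targets, beside -0.02 over all genes tested.

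Several marker sums differed between the groups in which Nr4a1 and Fosb were high and the others. The 5 endothelial markers summed to between 347 and 407 CPM in combination and to at most 325 CPM elsewhere, and were lowest in swimming (117 to 188 CPM), where Nr4a1 and Fosb were the next highest. The 13 mitochondrially encoded genes summed to 48654 to 62353 CPM in combination, 44028 to 50361 in swimming and 30228 to 41462 in control. The 4 adipocyte markers reached 5.09 to 7.09 CPM in combination and at most 2.70 CPM elsewhere, and each of them was at 0 in at least 1 library. The 4 fibroblast markers summed to 3683 to 3924 CPM in combination and 1255 to 2191 CPM in swimming, but also to 3033 to 3749 CPM in curcumin, where Nr4a1 was lowest, and to 806 to 3222 CPM in control. The 3 NK cell markers gave 33.2 to 42.0 CPM in combination and 8.96 to 11.3 CPM in swimming, with control 1 at 38.0 CPM. The 5 skeletal muscle markers were at 51.2 to 55.2 CPM in combination and 243 to 345 CPM in curcumin, with 9.35 to 337 CPM in control and 17.3 to 125 CPM in swimming. The 5 neutrophil markers were lowest in combination, at 32.8 to 33.6 CPM. The 6 macrophage markers summed to 837 to 878 CPM in combination, 731 to 1152 in swimming and 1041 to 1635 in control. The 3 B cell markers were each at 0 in at least 1 library and summed to at most 1.09 CPM. The part of these cells and of RNA quality in the Nr4a1 and Fosb levels was not tested.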

How the data were processed

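RNA of 12 tumour libraries was measured by sequencing. For every gene and library, the authors deposited raw read counts and FPKM. The submitters' processing notes name cutadapt, TopHat2, HISAT2, HTSeq 0.9.1, DESeq 1.30.0 and build GRCm39, while the protocols in the labels name HISAT2 2.0.5 and mm9. The build of the table is therefore uncertain, and gene coordinates are copied from it. The deposited FPKM values equal count over gene length and library total for 184877 of 184877 values above 0 (relative tolerance 1e-05). The strand setting and the handling of reads shared by paralogues are not given in the sources used here. Counts were used for all tests, FPKM for levels between genes and for shares, and the table's gene length (the Length column, deposited by the authors) for the Fosb to Fos ratio.

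Groups come from the sample titles. Library totals ran from 15069348 to 17278826 counts. The filter was filterByExpr with a minimum count of 10 and a minimum total of 15, which kept 13638 genes. With TMM scaling, models were fitted in edgeR 4.0.16 (R 4.3.3, robust quasi-likelihood F-tests, 8 residual degrees of freedom) on all 12 libraries. There were 9 contrasts and a test over the 4 groups, with p-values adjusted by Benjamini-Hochberg over all tested genes and called at 0.05. Standard errors were derived from the F statistic. Log2 CPM used a prior count of 2. Alternatives were DESeq2 1.42.0, limma voom with a weight per group (limma 3.58.1), no filter on low counts, RLE scaling, a minimum mean count of 50, only the groups compared, the replicate number as a block, the combination libraries summed to 1, and leaving out each library. Replicates of a group differed beyond sampling noise (chi-square per degree of freedom of at least 3.91). The steps were tested on simulated data.

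All 10 genes are named. From each of 9 related lists (123 entries, 119 in the table) the called genes are named, up to 4 by smallest p, with 2 to 4 not called; Mmp10, Egr2, Egr3 and the genes set beside Nr4a1, Fosb and Egr1 in the plot of group patterns were named after their values were seen. The genes and lists were chosen with earlier results of these data known. The promoter sequences are from RefSeq, build GRCm38.p6, and coordinates of that build are not those of the table.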

Additional observations from a re-analysis of the deposited data

Results flagged for a closer look

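Erbb3, a receptor of the EGF receptor family without strong kinase activity of its own, was the 1 gene of the related lists whose interaction of swimming and curcumin edgeR called. DESeq2 called 1 of 16 other early response genes, 2 of 10 EGF receptor ligands and receptors and 2 of 16 AP-1 targets, and limma voom called 1 gene in each of these 3 lists. Of all 13638 genes, 217 had a called interaction with DESeq2, 36 with limma voom and 34 with edgeR. Erbb3 measured 33.2 ± 3.22, 23.3 ± 3.37, 20.2 ± 2.64 and 36.9 ± 2.61 CPM across control, curcumin, swimming and combination (SD, n = 3 each). The test of the difference between the swimming effects with and without curcumin passed. The interaction was 1.37 ± 0.19 on the log2 scale (edgeR adjusted p = 0.0215) and was lost without curcumin 3, swimming 1 or any combination library (edgeR adjusted p from 0.0642 to 0.106) and kept without each of the other libraries.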

How the results depend on the processing

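The 25 fold changes of the 10 genes that were recomputed gave 491 values under the alternatives, of which 0 changed sign, 30 lost the call and 38 gained it. They were those with an unadjusted edgeR p under 0.05 in the main fit, with a few of Fos and Nr4a3 added by hand. This choice favoured changes far from 0, so the count of sign changes is no independent check. With the combination libraries summed to 1 sample, Nr4a1 stood at log2 differences of 0.99, 1.30 and 0.69 against control, curcumin and swimming. Fosb then stood at 1.85 and 1.89 against control and curcumin. The lone sample is assumed to vary like the other groups, so calls from this fit, though among the counts above, are not read. With the replicate number as a block, combination against curcumin called 1 (Nr4a1) in place of 2, and the block changed no other count beyond 1.5 times. Replicate numbers gave no clear sign of pairing: 2 of 18 same-numbered pairs correlated above 0.1 (range -0.251 to 0.165). The highest value of differently numbered pairs was 0.228. These correlations used values centred within groups of 3 libraries and cannot exclude a pairing. Fitting only the compared groups called 3 in combination against swimming and 2 in swimming against curcumin, with 2707 and 659 genes called in all. DESeq2 called 2 and 3 there, 1 in the interaction and 1 for curcumin averaged over swimming. Its calls over all genes were 1886, 1032, 217 and 1989 in these contrasts, against 908, 243, 34 and 885 in the main fit. Limma voom called 3, 2 and 1 in combination against swimming, swimming against curcumin and curcumin averaged over swimming. There it called 2797, 907 and 1466 of all genes. Leaving out 1 library gave 0 to 1 called genes for swimming against control, 0 to 2 for combination against control, 1 to 3 against curcumin and 0 to 2 against swimming. It gave 0 to 4 for swimming against curcumin, 0 to 2 for the interaction, 0 to 1 for curcumin averaged over swimming, 1 to 4 for swimming averaged over curcumin and 1 to 4 over the 4 groups. For combination against control, all genes called fell from 663 to between 4 and 20 when a combination library was left out, so the lost calls of Nr4a1 and Fosb came with a loss of calls in general. Without control 2, calls over all genes rose in combination against curcumin (116 to 715), swimming against control (42 to 603) and combination against swimming (908 to 2697), so the Egr1 and Fosl2 calls gained there came with a general gain. The 51 recomputed results of related genes gave 998 values, with 0 changes of sign and 441 lost calls. All 51 were chosen because they were called in the main fit, so they could lose a call but not gain one. The cause of these differences was not tested. With 3 libraries per group and 21 to 144 counts of Nr4a3 per library, small changes of this gene were not detectable.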
